A study of Mus musculus with 10 samples.

Results

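The genes Chaf1a, Chaf1b, Asf1a, Asf1b, Hira, Daxx, Atrx, Nap1l1, Nap1l4 and Set encode histone chaperones other than the nucleoplasmins, and these 10 were taken by name from the 33006 genes of the deposited count table. All 10 were found, and all 10 were among the 13522 genes that passed the filter on low counts. They were read as 4 replication-coupled chaperones (the large and middle subunits of CAF-1 and both ASF1 paralogs) and 6 replication-independent ones (HIRA, DAXX, ATRX, NAP1L1, NAP1L4 and SET). RNA came from E14 mouse embryonic stem cells in which a degron on NPM1 lets auxin remove the protein, collected 12 h after release from G1, with auxin (2 libraries) and without auxin (2 libraries). All 4 libraries shared the NPM1 degron genotype and a medium that held LIF, PD0325901 at 1 µM to block MEK1/2 and CHIR99021 at 3 µM to block GSK3. The header of the count table names a single clone, clone 38, so the cells stand for 1 clone of 1 line. No label says that the replicates were separate cultures. A p-value here sets a difference between the groups against the spread between libraries, and that spread may be technical.

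Histone chaperones escort histones from their synthesis to DNA and keep them from sticking to other molecules on the way. CAF-1 is held at the replication fork by the sliding clamp PCNA and lays new H3-H4 onto daughter strands, and ASF1 hands H3-H4 to CAF-1 as well as to HIRA. HIRA places the replacement variant H3.3 in genes and promoters at any time of the cell cycle, while DAXX with the remodeller ATRX places H3.3 in heterochromatin, telomeres and endogenous retroviruses, which embryonic stem cells keep silent. NAP1 proteins and SET share a fold, and NAP1 proteins are best known for carrying H2A-H2B.

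Transcripts of 5 of these chaperones fell with auxin, 5 were not called and none rose. Atrx fell most, by 0.56 on the log2 scale, and Chaf1b, Set, Chaf1a and Hira fell by 0.34, 0.30, 0.21 and 0.21. Of the other 5, only Asf1a had a positive estimate under the main scaling. Of the 10, 5 were called lower and 0 higher (edgeR quasi-likelihood test, Benjamini-Hochberg adjustment over all genes tested, threshold 0.05), where 14.5% of all genes tested were called lower and 13.0% higher. The replication-coupled chaperones gave 2 lower of 4, and the replication-independent ones 3 lower of 6. DESeq2 also called 5 of the 10 lower, against 11.3% of the genes it tested, and a fit with the replicate number as a block called 8 lower, against 23.5% of all genes.

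Sequence before the gene start is shown for 4 of these genes, to set Atrx, which fell most, and the CAF-1 pair, which fell, beside Asf1a, the one gene with a positive estimate. Each stretch is the 250 bases before the start that RefSeq gives (GRCm38.p6, the build that mm10 names) and runs 5′ to 3′ along the gene. Capitals mark a CCAAT box, read as CCAAT or on the other strand as ATTGG.
Atrx, chrX:105929373-105929622, minus strand: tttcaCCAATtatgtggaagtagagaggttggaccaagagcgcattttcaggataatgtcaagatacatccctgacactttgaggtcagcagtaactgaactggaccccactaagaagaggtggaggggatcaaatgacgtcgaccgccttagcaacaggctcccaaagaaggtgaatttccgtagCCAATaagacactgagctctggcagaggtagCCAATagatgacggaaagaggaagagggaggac
Chaf1a, chr17:56040166-56040415, plus strand: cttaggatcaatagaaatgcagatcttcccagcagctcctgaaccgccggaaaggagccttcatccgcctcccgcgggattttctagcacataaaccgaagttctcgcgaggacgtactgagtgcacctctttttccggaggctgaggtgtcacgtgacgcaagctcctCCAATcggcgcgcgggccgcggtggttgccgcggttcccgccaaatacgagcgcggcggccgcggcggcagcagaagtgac
Chaf1b, chr16:93883651-93883900, plus strand: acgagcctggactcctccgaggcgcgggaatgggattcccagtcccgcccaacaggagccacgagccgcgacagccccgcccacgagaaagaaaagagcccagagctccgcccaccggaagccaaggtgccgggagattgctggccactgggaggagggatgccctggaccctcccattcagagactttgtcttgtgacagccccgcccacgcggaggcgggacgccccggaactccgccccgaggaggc
Asf1a, chr10:53596711-53596960, plus strand: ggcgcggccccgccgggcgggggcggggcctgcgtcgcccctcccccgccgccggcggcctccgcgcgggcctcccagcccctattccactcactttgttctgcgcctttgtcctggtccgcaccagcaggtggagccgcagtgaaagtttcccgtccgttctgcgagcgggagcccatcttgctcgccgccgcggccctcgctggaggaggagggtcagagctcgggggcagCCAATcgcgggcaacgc

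The Atrx stretch holds 3 CCAAT boxes, and a further 1 lies within the 50 bases after its start. Chaf1a and Asf1a hold 1 each, and Chaf1b none. Atrx also stood apart in base composition, at 50.3% GC and 11 CG dinucleotides in a window of 300 bases (250 before and 50 after the start), near the median of 52.7% over all windows, whereas the windows of the other chaperones held 61.3% to 77.3% GC.

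RefSeq windows of this length were found for 9 of the 10 genes, all but Nap1l4, with several starts for Daxx and Set. A CCAAT box was present in 7 of the 9 genes, and in 37.4% of all 32851 windows. A gene was counted if any of its windows held the motif, and Daxx held CCAAT at the first of its starts only. The share of windows counts each window singly. Asf1b, whose RefSeq start lies 187 bases inside the gene as the count table places it, held 4 CCAAT boxes and a cell cycle homology region (TTTGAA), an element found in promoters of genes expressed late in the cell cycle. At least 4 CCAAT boxes, as in Asf1b and Atrx, were present in 1.06% of all windows, a number looked up after these sequences had been seen. Both RefSeq starts of Set lie far inside the gene as the count table places it, by 4618 and 9096 bases. TTTGAA was present in 2 of 9 genes, Asf1b and (at the first of these starts only) Set, and in 17.9% of all windows. Exact matches to the E2F words TTTGGCGC, TTTCGCGC, TTTCCCGC or TTTGCCGC were in 0 of 9 genes and in 2.26% of all windows. Other forms of the E2F site were not searched for, so these genes are not shown to lack one. The printed Chaf1a stretch holds ttcccgccaaa, a form of the E2F site that these words miss. Whether E2F binds there was not tested. The NRF1 core CGCATGCG was in 0 of 9 genes and in 1.87% of all windows. Both strands were searched for each motif, and a match or its absence describes the letters of the window alone.

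Total counts were 13353446 and 16046290 with auxin and 14789851 and 15183126 without auxin. Npm1, whose protein the degron targets, averaged 805 ± 53.8 CPM (each count relative to its TMM-scaled library size) with auxin and 1005 ± 75.6 CPM without auxin (SD, n = 2 each), and since auxin acts on the protein, its transcript does not check the labels. All 10 stem cell markers stood at 250.7 CPM or more in both group means, 5 of them fell and 2 rose, and they summed to 7428 and 7234 CPM with auxin against 7724 and 7586 CPM without auxin. Of 10 fibroblast markers 6 were tested, 1 rose (Pdgfrb), and they summed to 26.8 and 35.3 CPM with auxin against 18.0 and 24.5 CPM without auxin, with Postn and Lum at 0 or 1 count in each library. Of 8 trophectoderm markers 7 were tested, 4 rose and 1 fell, and they summed to 152 and 166 CPM with auxin against 134 and 147 CPM without auxin, with Elf5 at 0 counts in all libraries. That sum hides opposite changes, since the median log2 fold change was 1.11, with Tfap2c, Cdx2, Gata3 and Hand1 higher (log2 fold changes 1.23, 1.28, 1.11 and 1.76) and Eomes lower, at 20.5 CPM with auxin against 57.2 CPM without auxin. Of 7 primitive endoderm markers 6 were tested, 2 rose, and they summed to 24.6 and 27.02 CPM with auxin against 15.2 and 17.8 CPM without auxin. Medians of the stem cell, fibroblast and primitive endoderm markers were −0.14, 0.29 and 0.71. Beside these marker counts, 14.5% of all genes tested were called lower and 13.0% higher. The part of other cell types in the values below was not tested. In bulk RNA, fewer cells of a type and less RNA per cell cannot be told apart.

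Levels were compared between genes as FPKM, here the TMM-scaled CPM per kilobase of exon. The length covers all annotated exons of a gene (15190 bases for Atrx), whether or not these cells use them. The order of genes with close levels depends on it. Set was the most abundant chaperone, at 199.8 and 182 FPKM with auxin and at 244 and 225 FPKM without auxin. Nap1l1 came next at 161 and 149.8 FPKM with auxin and at 182 and 164 FPKM without auxin, followed by Nap1l4, Chaf1a and Daxx, which averaged 70.2, 47.9 and 40.95 FPKM with auxin and 75.7, 55.5 and 43.5 FPKM without auxin. The other 5 averaged between 12.0 FPKM (Chaf1b) and 20.1 FPKM (Asf1a) with auxin, and between 15.1 FPKM (Chaf1b) and 21.6 FPKM (Hira) without auxin.

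The order of the first 5 was the same in both groups, and no neighbours among them had overlapping libraries. Below them the order with auxin ran Asf1a, Hira, Asf1b, Atrx, Chaf1b, with no overlap between neighbours. Without auxin it ran Hira, Asf1b, Atrx, Asf1a, Chaf1b, where the libraries of Hira and Asf1b overlapped, as did those of Asf1b and Atrx. Of the summed FPKM of the 10 chaperones, Set made up 33.3% and 31.7% of it with auxin, and 34.8% and 34.3% without auxin. Atrx made up 2.32% and 2.37% of it with auxin, and 2.98% and 3.02% without auxin.

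**Figure D1:**
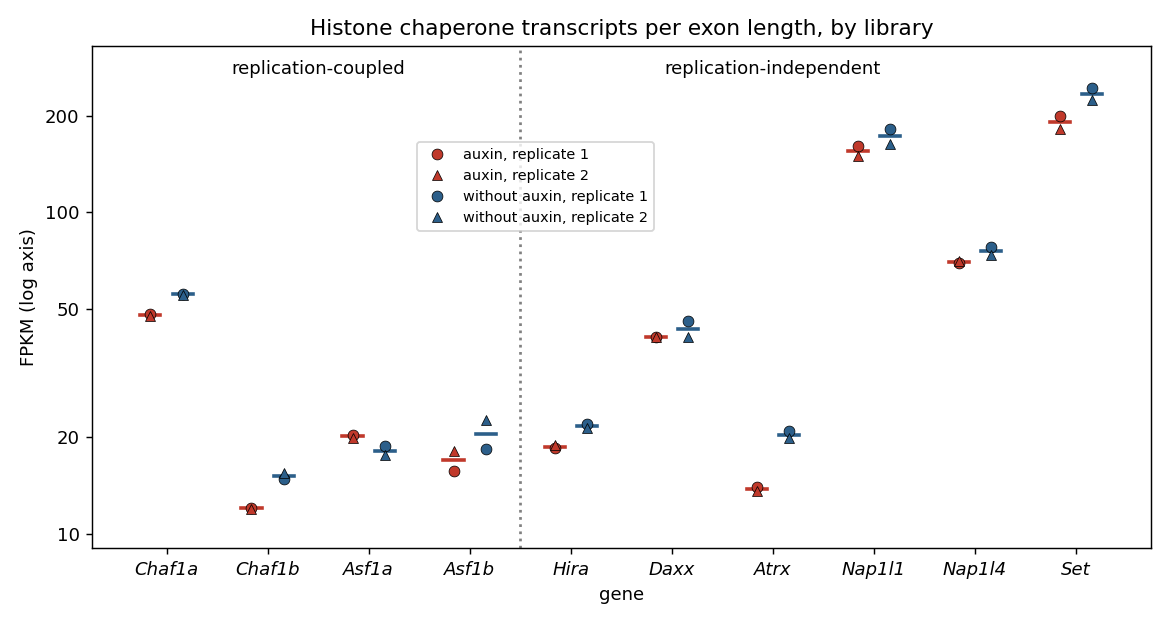
FPKM of each chaperone in each library on a log axis, with auxin (red) left of without auxin (blue), circles for replicate 1, triangles for replicate 2, and bars for the mean of 2 libraries. Atrx shows the widest gap between the groups, at 13.9 and 13.6 FPKM with auxin against 20.9 and 19.8 FPKM without auxin, while Asf1a is the one gene whose libraries with auxin lie above those without.

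Both CAF-1 subunits among the chaperones fell. Chaf1a (chromosome 17, 56040416 to 56068026, plus strand, mm10) encodes the large subunit, which binds PCNA. It stood at 159 and 157 CPM with auxin and at 185 and 183 CPM without auxin. Both libraries with auxin lay below both without, with a log2 fold change of −0.21 (SE 0.05, 95% interval −0.33 to −0.10, edgeR adjusted p = 0.00995). The call was lost without replicate 1 of the libraries without auxin (edgeR adjusted p = 0.0646) and with library totals as the only scaling (edgeR adjusted p = 0.123). Exons of Ubxn6 overlap Chaf1a on the opposite strand, and the counting used strand, per the file header.

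Chaf1b (chromosome 16, 93883901 to 93906115, plus strand) encodes the middle subunit, a WD40 protein. It stood at 60.1 and 59.8 CPM with auxin and at 73.8 and 77.4 CPM without auxin. The groups did not overlap, and Chaf1b changed by −0.34 on the log2 scale (SE 0.07, 95% interval −0.48 to −0.19, edgeR adjusted p = 0.00366). No library left out and no scaling tried ended this call. Rbbp4, the small subunit of CAF-1, which also serves in Polycomb and deacetylase complexes, fell as well, with 489.5 and 459 CPM with auxin and 561 and 552 CPM without auxin (log2 fold change −0.23, edgeR adjusted p = 0.00578).

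The ASF1 paralogs had estimates of opposite sign, and neither was called. Asf1a (chromosome 10, 53596961 to 53609213, plus strand), the paralog linked mostly to HIRA, stood at 44.2 and 43.4 CPM with auxin and at 40.9 and 38.2 CPM without auxin. Its libraries with auxin were the higher ones, but its log2 fold change of 0.15 (SE 0.08, 95% interval −0.03 to 0.32, edgeR adjusted p = 0.186) missed the threshold. It passed with library totals as the only scaling (log2 fold change 0.24, edgeR adjusted p = 0.0409).

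Asf1b (chromosome 8, 83955507 to 83970197, plus strand), the paralog linked to proliferating cells, stood at 36.7 and 42.4 CPM with auxin and at 42.9 and 52.6 CPM without auxin. Replicate 2 with auxin and replicate 1 without auxin nearly met, and Asf1b had the largest standard error of the 10 genes. Its log2 fold change was −0.27 (SE 0.11, 95% interval −0.50 to −0.04, edgeR adjusted p = 0.0817). Asf1b passed the threshold without auxin replicate 2 (log2 fold change −0.38, edgeR adjusted p = 0.00574) and without replicate 1 of the libraries without auxin (log2 fold change −0.41, edgeR adjusted p = 0.0112).

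Hira (chromosome 16, 18877037 to 18970309, plus strand), the WD40 scaffold of the complex that deposits H3.3, fell. It stood at 97.3 and 99.4 CPM with auxin and at 115 and 113 CPM without auxin. The groups did not overlap, and the change was −0.21 on the log2 scale (SE 0.06, 95% interval −0.34 to −0.09, edgeR adjusted p = 0.0188). The call was lost without auxin replicate 1 (edgeR adjusted p = 0.0587), without replicate 1 of the libraries without auxin (edgeR adjusted p = 0.115) and with library totals as the only scaling (edgeR adjusted p = 0.178). The annotated gene Gm15797 shares exon sequence with Hira on the same strand, and fragments over both are not counted, per the file header; Gm15797 itself held at most 1 count in a library.

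Of 3 partners of HIRA none was called, and their median log2 fold change was 0.06. The shares called over all genes tested were 14.5% lower and 13.0% higher. The ubinuclein Ubn1 had 70.9 and 71.2 CPM with auxin and 66.2 and 64.7 CPM without auxin (log2 fold change 0.12, edgeR adjusted p = 0.200). Ubn2, the second ubinuclein, had 72.8 and 73.1 CPM with auxin and 68.4 and 71.7 CPM without auxin (log2 fold change 0.058, edgeR adjusted p = 0.543). Cabin1, the calcineurin-binding subunit, had 120.0 and 120.0 CPM with auxin and 137 and 131 CPM without auxin (log2 fold change −0.16, edgeR adjusted p = 0.0616). Whether Hira changed differently from these partners was not tested.

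Atrx (X chromosome, 105797615 to 105929397, minus strand) encodes the SNF2-family remodeller that works with DAXX. It stood at 211 and 207 CPM with auxin and at 317 and 301 CPM without auxin. The gap between the groups was several times the spread within them, and Atrx changed by −0.56 on the log2 scale (SE 0.05, 95% interval −0.68 to −0.45, edgeR adjusted p = 2.81e-05). The level without auxin was 1.48 times the level with auxin. The call held with each library left out in turn and with each scaling, filter and tool tried.

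Daxx (chromosome 17, 33909414 to 33915589, plus strand), the chaperone that binds H3.3 itself, stood at 125.1 and 125.3 CPM with auxin and at 140.4 and 125.6 CPM without auxin. Replicate 2 without auxin sat beside the libraries with auxin. Its log2 fold change was −0.09 (SE 0.06, 95% interval −0.23 to 0.05, edgeR adjusted p = 0.347), and with library totals as the only scaling the estimate turned to 0.0094. Without replicate 1 of the libraries without auxin it was −0.0060.

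Of 6 listed partners of DAXX and ATRX, 5 were tested, 2 were called lower and 3 (Setdb1, Morc3 and Pml) were not called, with a median log2 fold change of −0.11. Trim28 (KAP1), the corepressor of endogenous retroviruses, fell, with 2181 and 2294 CPM with auxin and 2694 and 2673 CPM without auxin (log2 fold change −0.26, edgeR adjusted p = 0.00260). Cbx5 (HP1 alpha), a heterochromatin protein that binds ATRX, fell too, with 338 and 279 CPM with auxin and 402 and 364 CPM without auxin (log2 fold change −0.32, edgeR adjusted p = 0.0133).

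Set (chromosome 2, 30057378 to 30072577, plus strand), also known as an inhibitor of histone acetylation and of the phosphatase PP2A, fell. It stood at 813 and 739 CPM with auxin and at 991 and 915 CPM without auxin. Both libraries with auxin lay below both without, at a log2 fold change of −0.30 (SE 0.06, 95% interval −0.43 to −0.17, edgeR adjusted p = 0.00383). No library left out and no scaling tried ended this call.

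Nap1l1 (chromosome 10, 111473192 to 111498142, plus strand), the abundant NAP1 paralog, stood at 657 and 612 CPM with auxin and at 743 and 669 CPM without auxin. Replicate 1 with auxin came close to replicate 2 without, and the log2 fold change of −0.16 (SE 0.06, 95% interval −0.29 to −0.02, edgeR adjusted p = 0.0743) missed the threshold. It passed without auxin replicate 1 (log2 fold change −0.21, edgeR adjusted p = 0.00514) and without replicate 2 of the libraries without auxin (log2 fold change −0.23, edgeR adjusted p = 0.0209).

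Nap1l4 (chromosome 7, 143513579 to 143549090, minus strand), another widely expressed NAP1 paralog, stood at 159 and 161 CPM with auxin and at 178 and 168 CPM without auxin. Its libraries did not overlap, but the gap was small, at a log2 fold change of −0.11 (SE 0.05, 95% interval −0.23 to 0.01, edgeR adjusted p = 0.156). Fragments that mapped to more than 1 place were not counted, per the file header, which can lower the count of any of these genes that has near-identical copies.

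**Figure D2:**
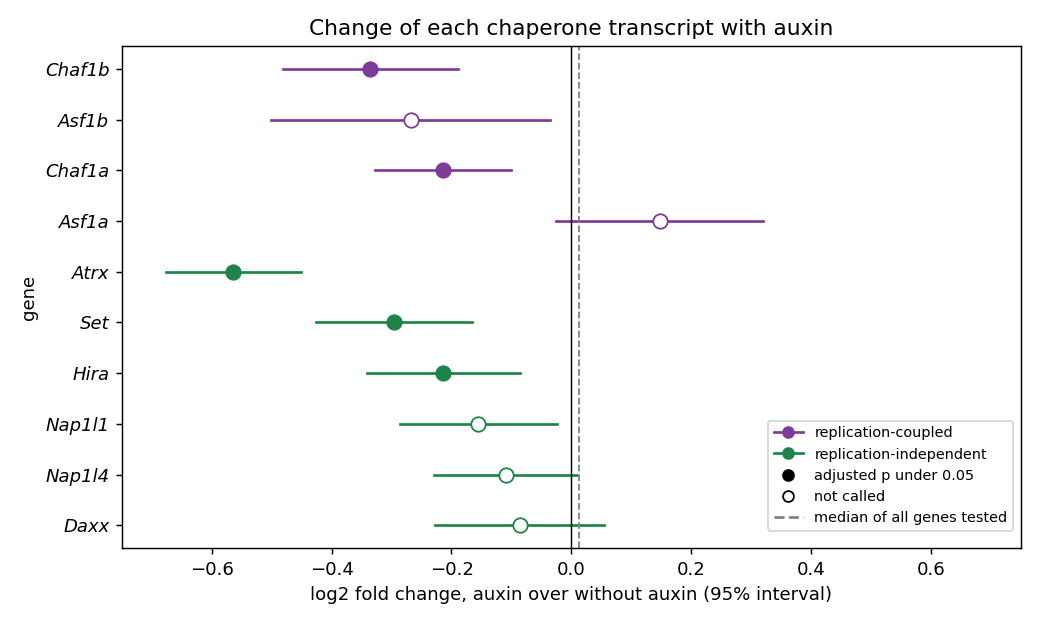
Log2 fold change of each chaperone, auxin over without auxin, with 95% intervals from the edgeR fit of 2 libraries each; filled points had an adjusted p under 0.05, and the dashed line is the median of all genes tested (0.01). Atrx lies apart at −0.56, and only Asf1a lies right of 0.

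Over the 10 genes the log2 fold changes had a median of −0.21, against 0.01 over all genes tested. It was −0.24 for the replication-coupled and −0.18 for the replication-independent chaperones, and these medians were not tested against each other. The libraries with auxin lay wholly below those without auxin for 9 of the 10 genes and wholly above for 1, Asf1a, which held for 31.8% and 33.0% of all genes tested. With library totals as the only scaling, the median of all genes moved to 0.11, and 8 of 10 chaperone estimates were negative. Of the chaperones, 3 were then called lower and 1 higher, beside 988 lower and 2735 higher of all 13522 genes tested. Among all called genes, that scaling gave 73.5% higher, against 47.2% with TMM factors.

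Ratios of partner genes within a library do not depend on scaling between libraries, and 4 were compared by an exact two-sided permutation test, in which 2 against 2 libraries cannot give a p below 0.33. Atrx over Daxx was 0.340 and 0.332 with auxin and 0.455 and 0.482 without auxin. The groups did not overlap, with a difference of −0.48 in mean log2 ratio (exact permutation p = 0.33, adjusted p = 0.444).

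Asf1b over Asf1a was 0.774 and 0.912 with auxin and 0.979 and 1.29 without auxin. These groups did not overlap either, with a difference of −0.42 in mean log2 ratio (exact permutation p = 0.33), and the libraries without auxin lay farther apart than those with auxin. Without replicate 2 of the libraries without auxin the difference was −0.22. Chaf1b over Chaf1a was 0.249 and 0.251 with auxin and 0.264 and 0.280 without auxin, a difference of −0.12 (exact permutation p = 0.33) that was −0.079 without the same library. Nap1l4 over Nap1l1 was 0.435 and 0.471 with auxin and 0.428 and 0.449 without auxin. The NAP1 ratios overlapped between the groups, with a difference of 0.044 (exact permutation p = 0.667).

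**Figure D3:**
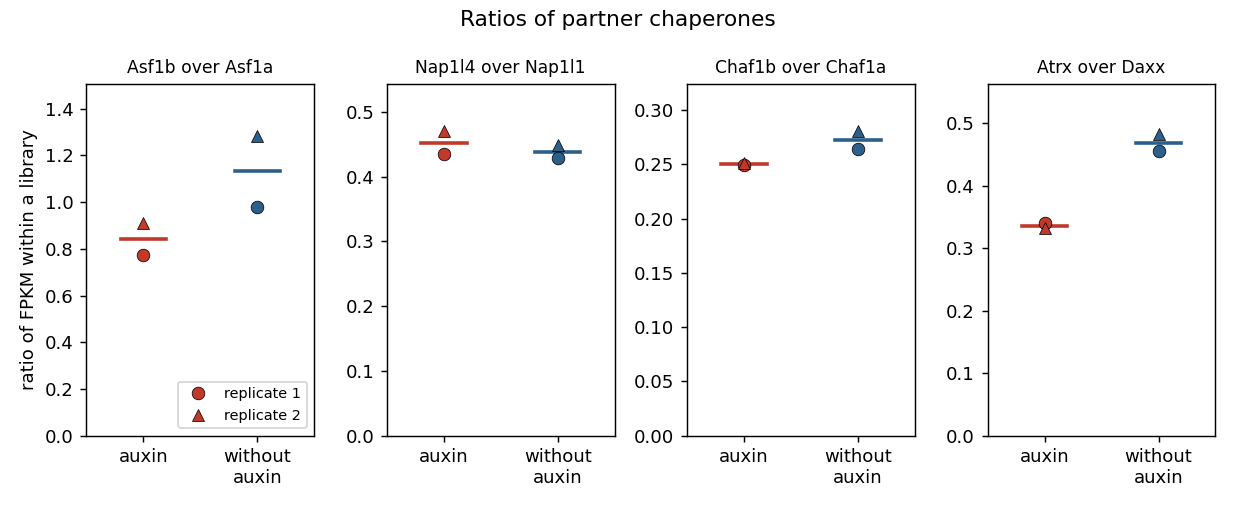
Ratio of FPKM of 2 partner chaperones within each library, with auxin (red) left of without auxin (blue), circles for replicate 1, triangles for replicate 2, and bars for the mean of 2 libraries. Atrx over Daxx was 0.340 and 0.332 with auxin and 0.455 and 0.482 without auxin, while Nap1l4 over Nap1l1 overlapped between the groups.

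Of 9 genes for H3-H4 supply and ASF1 partners, 6 were called lower, 0 higher and 3 were not called. The median log2 fold change was −0.23, and 14.5% of all genes tested were called lower. Ipo4, a nuclear importer of H3-H4, fell, with 171 and 168 CPM with auxin and 227 and 214 CPM without auxin (log2 fold change −0.38, edgeR adjusted p = 0.000493). Nasp, which keeps the reserve of soluble H3-H4, fell, with 390.1 and 375 CPM with auxin and 489 and 465 CPM without auxin (log2 fold change −0.32, edgeR adjusted p = 0.000949). The 3 not called were Tlk1 and Tlk2, the kinases that phosphorylate ASF1, and Cdan1, which holds ASF1 in the cytoplasm.

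Of 8 replisome partners of histone transfer, 5 were called lower and 3 (Tonsl, Mms22l and Pole4) were not called. Their median was −0.22, and 14.5% of all genes tested were called lower. Pcna, the clamp that recruits CAF-1, fell, with 265 and 239 CPM with auxin and 308 and 305 CPM without auxin (log2 fold change −0.29, edgeR adjusted p = 0.00365). Mcm2, the helicase subunit that holds parental H3-H4, fell, with 616 and 621 CPM with auxin and 719 and 721 CPM without auxin (log2 fold change −0.22, edgeR adjusted p = 0.00480). The groups of both genes were apart.

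Of 5 genes listed for FACT and transcription elongation, 3 were called lower and 2 (Iws1 and Spty2d1) were not called. Their median was −0.23, and 14.5% of all genes tested were called lower. Supt16, the large subunit of FACT, fell, with 365 and 337 CPM with auxin and 476 and 458 CPM without auxin (log2 fold change −0.41, edgeR adjusted p = 0.000289). Supt6, which rides with elongating polymerase, fell, with 329 and 341 CPM with auxin and 412 and 425 CPM without auxin (log2 fold change −0.32, edgeR adjusted p = 0.000743). The smaller FACT subunit Ssrp1 was the other one called (log2 fold change −0.23, edgeR adjusted p = 0.00554).

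A further 10 genes were listed for H2A-H2B handling or as relatives of such genes. Of these, 2 were called lower and 8 were not called, at a median of −0.10. That share is near the 14.5% of all genes tested that were called lower. Anp32e, which removes H2A.Z, fell, with 119 and 116 CPM with auxin and 156 and 146 CPM without auxin (log2 fold change −0.36, edgeR adjusted p = 0.00110). Its relative Anp32b fell, with 227 and 222 CPM with auxin and 295 and 269 CPM without auxin (log2 fold change −0.33, edgeR adjusted p = 0.00157). The NAP1 paralogs Nap1l2, Nap1l3 and Nap1l5 were rare, at 3.28 CPM or less in each group mean, and were not called. The 6 genes listed for loading the centromeric variant CENP-A had a median of −0.12.

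Cell cycle genes moved beside the chaperones, in lists chosen with earlier results of these data known. Over all genes tested, 14.5% were called lower and 13.0% higher. Of 40 G1/S and replication genes, 24 fell and 0 rose, at a median of −0.24. They summed to 6389 and 6312 CPM with auxin against 7536 and 7569.8 CPM without auxin. The smallest adjusted p there belonged to Pola1, a subunit of the priming polymerase (log2 fold change −0.53, edgeR adjusted p = 0.000270), and Mcm7, a helicase subunit (log2 fold change −0.37, edgeR adjusted p = 0.000293). Of 30 G2/M genes, 25 fell and 0 rose, at a median of −0.27 and sums of 4707 and 4711 CPM with auxin against 5734 and 5665 CPM without auxin, and the smallest adjusted p belonged to the proliferation marker Mki67 (log2 fold change −0.38, edgeR adjusted p = 0.000402) and the checkpoint gene Bub1b (log2 fold change −0.37, edgeR adjusted p = 0.000449). With library totals as the only scaling, 14 G1/S and 16 G2/M genes were called lower, beside 988 of all 13522 genes tested. The part of cell cycle position in the chaperone values was not tested.

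**Figure D4:**
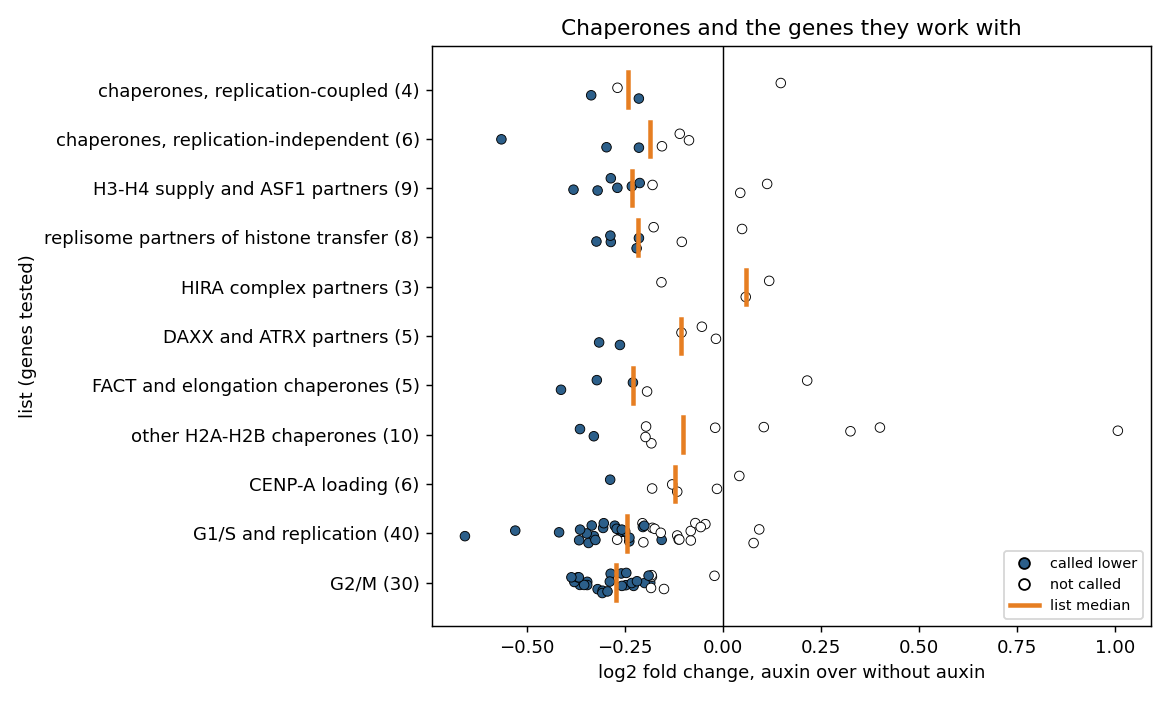
Log2 fold change, auxin over without auxin, of each tested gene in the chaperone groups and in the lists of genes they work with; filled points were called lower, open points were not called, orange bars are list medians, and vertical scatter within a row has no meaning. HIRA complex partners have a median of 0.06, and the G1/S and G2/M lists sit at −0.24 and −0.27.

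The repressive histone mark H3K27me3 was read from 1 ChIP-seq peak list, labelled without auxin at 6 h (41159 peaks). It was also read from 1 CUT&RUN peak list, labelled control at 12 h (66242 peaks). Neither had a replicate, and the control label does not name auxin. No chaperone gene had a peak within 1 kb of its 5′ end in either list (0 of 10 each), where 6.91% of genes tested had a ChIP-seq peak there and 7.65% a CUT&RUN peak. No peak lay over any of the 10 gene bodies. In CUT&RUN the nearest peaks were 17.9 kb from the 5′ end of Nap1l1 and 25.3 kb from that of Asf1b, at −log10 q of 1.08 and 1.19. The ChIP-seq peaks nearest to those ends were 131 and 55.0 kb away. Over the 10 genes, the nearest ChIP-seq peak was 37.2 kb from the 5′ end of Chaf1a. Set was the farthest from the mark, at 191 kb in ChIP-seq and 293 kb in CUT&RUN. Peak lists of cells with auxin were not analysed here.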

How the data were processed

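RNA-seq libraries were read as 100 bp pairs, per the labels. The authors deposited raw fragment counts per gene; per the file headers, featureCounts 1.6.3 counted exons by strand on mm10, leaving out fragments with several mapping places or over several genes. The submitters' processing notes name STAR 2.6.1d and MACS2 2.1.1. In the deposited peak lists, every broad peak has the authors' score, fold enrichment and −log10 p and q values, used only to place or filter peaks; their read depth is unknown.

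Counts were fitted with edgeR 4.0.16 (R 4.3.3): default expression filter, TMM factors, quasi-likelihood test without a replicate block, two-sided, Benjamini-Hochberg over 13522 genes, threshold 0.05. The code was tested on simulated data. Chi-square per degree of freedom between replicates was 11.1 with auxin and 3.86 without auxin, above what counting alone gives. The members and the 13 gene lists were chosen with earlier results of these data known. All members are named, and of each list up to 2 called genes per direction with the smallest adjusted p; lists or counts of 5 or fewer may be named whole. Rbbp4 and the rare NAP1 paralogs were added after their values were seen, and called cell type markers are mostly given as counts. Alternatives were RLE, upper-quartile or no scaling factors, a filter of at least 1 read, DESeq2 1.42.0, limma-voom (limma 3.58.1), a replicate block, each library left out, and for peaks a window of 5 kb and −log10 q of at least 2. Protein sequences were not used here. The call for 1 gene of the CENP-A list is not reported here.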

Additional observations from a re-analysis of the deposited data

How the results depend on the processing

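Of the 10 chaperones, 9 kept their direction under all alternatives run; Daxx turned to 0.0094 with library totals only. Under that scaling Chaf1a (−0.12) and Hira (−0.12) lost their calls and Asf1a (0.24) was called, leaving 3 lower and 1 higher of the 10 (1 lower and 1 higher of the replication-coupled), and 988 lower and 2735 higher of all genes. With the filter of at least 1 read, Asf1b (−0.27) and Nap1l1 (−0.16) were called. Both groups share replicate numbers, no label says what they mark, and the replicate differences of the groups correlated at 0.297 over genes; with the replicate block Asf1b (−0.27), Nap1l1 (−0.15) and Nap1l4 (−0.11) were called, giving 8 of 10 lower (5 of 6 replication-independent), and 3177 lower and 2972 higher of all genes. DESeq2 called 877 of all genes higher. Leaving out 1 library gave 4 to 6 of 10 lower, 1257 (without replicate 1 of the libraries without auxin) to 1914 of all genes lower and 1225 to 1705 higher, with log2 fold changes of −0.23 to −0.20 for Chaf1a, −0.24 to −0.20 for Hira, −0.41 to −0.12 for Asf1b (nearest 0 without replicate 2 of the libraries without auxin), 0.094 to 0.20 for Asf1a (likewise), and −0.23 to −0.080 for Nap1l1, −0.16 to −0.070 for Nap1l4 and −0.17 to −0.0060 for Daxx (each nearest 0 without replicate 1 of those libraries). Ratio differences ran from −0.61 to −0.22 for Asf1b over Asf1a, −0.16 to −0.079 for Chaf1b over Chaf1a and −0.013 to 0.10 for Nap1l4 over Nap1l1, which reversed without auxin replicate 2. Of the counts for the partner and cell cycle lists, 17 moved by over 1.5 times or to or from 0, and 181 did not. Many of these 181 were counts of genes called higher that stayed at 0, which says little about stability. The cause of these changes was not tested. No chaperone had a peak within 5 kb or at −log10 q of at least 2. With 2 libraries a group, a chaperone that was not called is not shown to be unchanged.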
